A study of Mus musculus with 8 samples.

Results

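The Acod1 locus was examined as the 16 accessible regions (peaks) of mouse chromosome 14, build mm9, that lie between 103405000 and 103465000, out of 74207 peaks in the whole table. The assay was ATAC-seq: Tn5 transposase cuts DNA where chromatin is open and adds adapters for sequencing there. The cells were bone marrow-derived macrophages of wild-type (WT) C57Bl/6 mice, grown in CMG media with FBS. Each of 2 mice gave 1 library for each of 4 groups, which makes 8 libraries with n = 2 mice per group. The groups were unstimulated cells, cells given 1 µM fenoterol for 15 min, cells given 100 ng/mL LPS for 1 h, and cells given 1 µM fenoterol for 15 min and then 100 ng/mL LPS for 1 h. Fenoterol activates the β2 adrenergic receptor, which raises cAMP. LPS, from the outer membrane of Gram-negative bacteria, is sensed by macrophages through its Toll-like receptor. The labels give no time after fenoterol alone, so whether fenoterol + LPS and fenoterol also differ in culture time cannot be told. The locus was selected on measured values, with earlier results known in which its peak at 103457007 led the differences of LPS against unstimulated cells. The rule itself gives coordinates only, so this contrast is taken, not known, to lie behind the choice, and it is described here without a test.

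Acod1, formerly Irg1, encodes aconitate decarboxylase, a mitochondrial enzyme that converts cis-aconitate, an intermediate of the tricarboxylic acid cycle, into itaconate. Itaconate accumulates in activated macrophages, where it inhibits succinate dehydrogenase and alkylates proteins such as KEAP1. The gene is nearly silent in resting macrophages and is among the transcripts most strongly induced by Toll-like receptor ligands. Open regions around such a gene can be its promoter or enhancers, the stretches of DNA that transcription factors bind to raise its transcription. Accessibility does not measure transcription, and the link of each peak to Acod1 rests on position alone.

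The rule that defines the locus places Acod1 approximately at 103446000 to 103456000, and these rounded ends are used below for all distances. The RefSeq tables of build GRCm38.p6 put the gene on the plus strand of chromosome 14, between the lncRNA genes Gm41235 and Gm41236. Peaks cannot be set against exons or introns, because no annotation of mm9 was used here. The RefSeq promoter of Acod1 (GRCm38.p6, chr14:103046762-103047061, plus strand, 250 bases before to 50 after the start) is shown because a peak at the approximate start is among those that differed most with LPS. Whether that peak covers these same bases was not checked across builds. Capitals mark the matches to the motif letters searched.
Acod1 promoter: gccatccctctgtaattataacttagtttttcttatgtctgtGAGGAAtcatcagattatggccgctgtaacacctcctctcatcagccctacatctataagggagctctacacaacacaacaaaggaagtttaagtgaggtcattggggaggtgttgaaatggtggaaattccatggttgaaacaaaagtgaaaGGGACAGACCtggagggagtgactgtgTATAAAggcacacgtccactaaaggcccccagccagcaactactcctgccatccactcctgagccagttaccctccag
Both strands were searched. The TATA box letters TATAAA stand 28 bases before the start and occur in 13.6% of the 32851 promoters of this length in the table. A loose form of the NF-kB site, GGG and CC with any 5 bases between them, matched once, at GGGACAGACC (50.8% of promoters), and this match also meets the overlapping stricter form, in which the base after GGG is A (20.7%). The letters GAGGAA, a single form of the sites of the ETS family that includes the macrophage factor PU.1, matched once (28.3%). No match was found in this window for an interferon-stimulated response element (GAAA, any 2 bases and GAAA again, 3.44% of promoters), TGANTCA (AP-1, 7.81%), TGACGTCA (the cAMP response element, 1.79%), its shorter form TGACG (20.8%) or TTGCNNNAA (C/EBP, 9.56%). Only these letters were searched, so other forms of the same sites, including any in the sequence above, were not counted or marked. These matches describe letters and not bound sites.

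Values are RPKM relative to reads in peaks, scaled between libraries. The shallowest library, unstimulated mouse 1, held 1425275 reads in peaks, and the other 7 held 3164244 to 4040220. The median peak of the table held 9 reads in that shallow library and 21 to 28 in the others. Within the locus the fewest reads at any peak and library was 2, and no value stood at the floor of 1 read. Unstimulated values of mouse 1 are therefore the least precise. Markers of macrophages or of other cell types were not analysed here, since the table names no genes. In these bulk libraries, more cells with a region open and more openness per cell cannot be told apart.

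Of the 16 peaks, 10 lie before the approximate start of Acod1, 3 at the start or within the gene and 3 past its end. They are 204 to 1113 bp wide and together cover 8283 bp, or 13.8% of the window. Some sit close together, with 88 bp between the peaks at 103432466 and 103433312 and little more between those at 103456180 and 103457007, so neighbouring peaks are not independent measurements. All 16 passed the filter on low values, which uses the mean over all 8 libraries (cut 9.62 RPKM). The peaks at 103424953 (7.03 RPKM unstimulated, 6.70 with fenoterol) and 103457007 (8.15 and 8.18) passed only through their values with LPS. Their rises with LPS are therefore not independent of the filter. At the edges of the window, the first peak inside, at 103406771, had 73.1 ± 9.50 RPKM unstimulated and 72.8 ± 3.398 RPKM with LPS (SD, n = 2), and the nearest peak outside it, at 103394381, had 15.8 ± 3.46 and 15.0 ± 2.58 RPKM. The last peak inside, at 103457564, had 60.7 ± 12.8 and 120.3 ± 1.76 RPKM, and the nearest outside, at 103468891, had 87.3 ± 14.9 and 71.4 ± 2.51 RPKM.

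**Figure D1:**
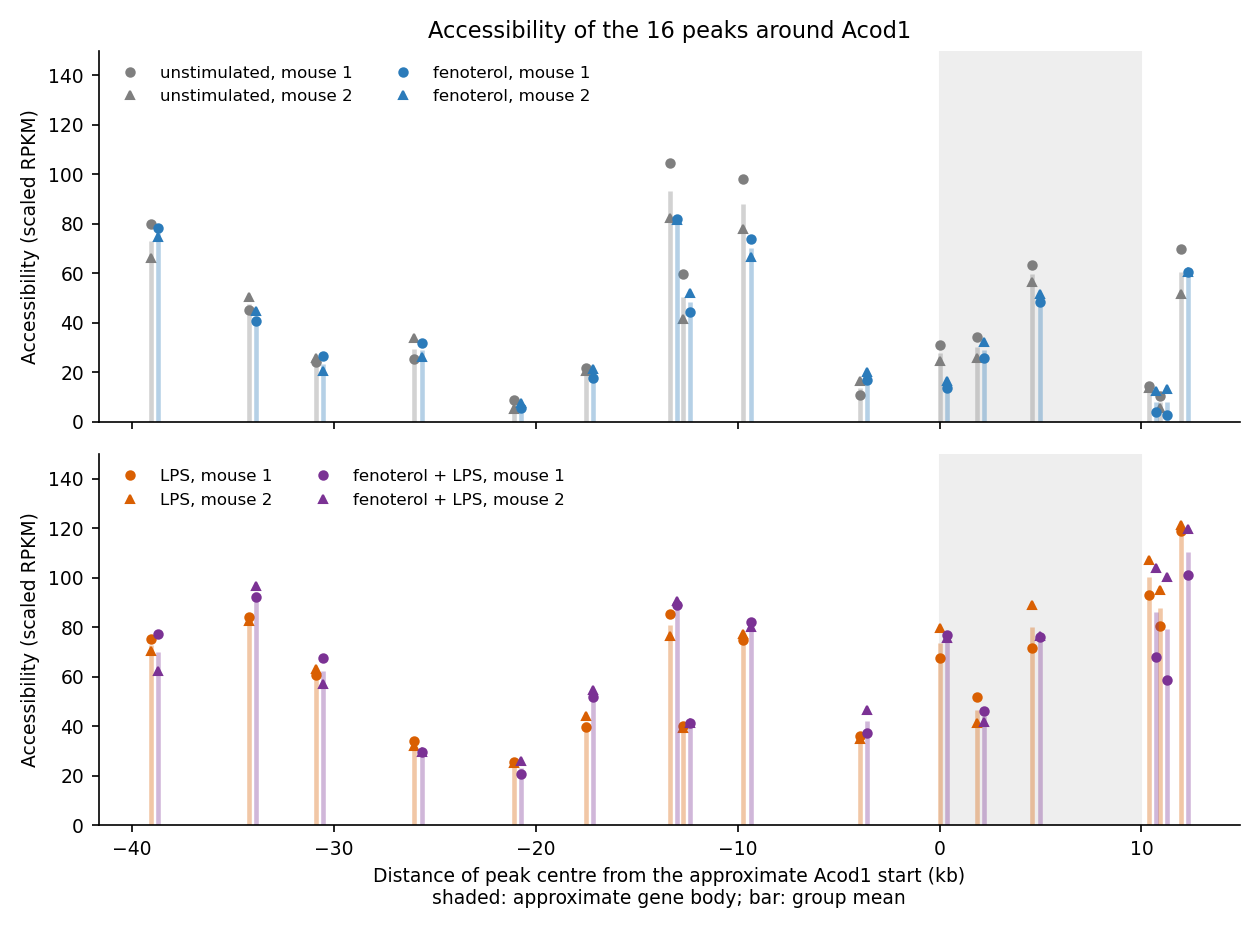
Scaled RPKM of the 16 peaks in each library, plotted by the distance of the peak centre from the approximate Acod1 start in kb, without LPS (upper panel) and with LPS (lower panel); circles are mouse 1, triangles mouse 2, bars group means, and the shaded area is the approximate gene. The 2 peaks just past the gene end stand at 2.97 to 14.4 RPKM in the 4 libraries without LPS and at 58.7 to 107.2 RPKM in the 4 with LPS, whereas the peak at -13.16 kb is tall in both panels, with group means of 80.9 to 93.5 RPKM.

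Without LPS, the highest peak of the window in each of the 4 libraries was the one at 103432466 to 103433223, centred at -13.16 kb from the start. With LPS it was the one at 103457564 to 103458676, centred 12.12 kb past the start and just downstream of the gene. LPS against unstimulated cells, the contrast taken to lie behind the choice of the locus, had 6 of 16 peaks at least 2-fold higher on the scale of scaled RPKM + 4, where 4.16% of all tested peaks were, and nothing is read from that count. The peak at 103457007 to 103457218 had 10.6 and 5.69 RPKM in the unstimulated libraries of mouse 1 and mouse 2 and 80.4 and 95.01 RPKM with LPS, a log2 difference of 2.94. Its neighbour at 103456180 to 103456905 had 14.4 and 13.6 RPKM unstimulated and 93.3 and 107.2 RPKM with LPS, a log2 difference of 2.53. The peak over the approximate start, at 103445994 to 103446425, had 31.2 and 24.5 RPKM unstimulated and 67.6 and 79.8 RPKM with LPS, a log2 difference of 1.29. At all 3 the groups did not overlap. This held, in either direction, at 13 of the 16 peaks. Its share over all tested peaks was not computed for this contrast, so nothing is read from that count. In fenoterol + LPS against fenoterol, groups without overlap were common over all tested peaks (27.1% higher and 30.3% lower). The other 3 that were at least 2-fold higher lie before the gene, at 103415102, 103424953 and 103442130, with log2 differences of 1.18, 1.44 and 1.17.

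The LPS difference was then measured in cells that had fenoterol, with group means that share no library with the contrast above; the value at 103457007 was among the earlier results known, so these calls are not independent support for the choice. In fenoterol + LPS against fenoterol, 11 of the 16 peaks rose and 0 fell, where 9.43% of all 66786 tested peaks rose and 4.32% fell (limma-trend, Benjamini-Hochberg adjusted p at most 0.05). The 6 peaks at the start, within the gene and past its end all rose, as did 5 of the 10 before it. Of the 11, 8 rose at least 2-fold, against 5.64% of tested peaks at least 2-fold higher. The median log2 difference was 0.92 over the 16 peaks and -0.03 over all tested peaks. A fit on these 4 libraries alone also gave 11, where 11.9% of all peaks were higher and 6.51% lower. Limma voom on reads recovered from the RPKM gave 11 too, where 12.1% were higher and 7.11% lower. The 11 include 103424953 and 103457007, which passed the filter only through the groups with LPS. Without the filter the count was also 11, where 7688 of 74207 peaks were higher (10.4%) and 3068 lower. At 14 of the 16 peaks the libraries of the groups did not overlap, all higher with LPS except that at 103433312, which was lower. Over all tested peaks this held for 27.1% in the higher and 30.3% in the lower direction. The spread of each peak in the first fit came from all 8 libraries, those of LPS against unstimulated included. The count was 7 without the fenoterol + LPS library of mouse 2, when the calls at 103424953, 103447778, 103450557 and 103457564 were lost; over all tested peaks 4.60% then rose in place of 9.43%.

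The peak over the approximate start had the smallest adjusted p of the locus by limma-trend. By voom its adjusted p, 1.14e-15, was larger than that of the peak at 103456180, 2.10e-22. The peak over the start had 13.8 and 16.7 RPKM with fenoterol in mouse 1 and mouse 2. With fenoterol + LPS it had 76.8 and 75.7 RPKM. The groups did not overlap and the mice of each group lay close together. The log2 difference was 2.06 (SE 0.15, adjusted p = 1.22e-07), from 19 and 28 reads to 131 and 117 reads. The ratio of the levels was 5.55 in mouse 1, with a 95% interval of 3.42 to 9.52, and 4.54 in mouse 2, with an interval of 2.98 to 7.12; these exact intervals cover counting error only.

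Downstream of the gene, the first peak, at 103456180, had 3.89 and 12.4 RPKM with fenoterol and 68.0 and 104.2 RPKM with both agents. Mouse 1 was lower than mouse 2 in both groups, and the groups did not overlap. The log2 difference was 2.96 (SE 0.24, adjusted p = 2.26e-07), the highest of the 16. The second downstream peak, at 103457007, had 2.97 and 13.4 RPKM with fenoterol and 58.7 and 100.4 RPKM with both, again with mouse 1 lower in each group (log2 difference 2.88, SE 0.30, adjusted p = 3.21e-06). Its fenoterol values rest on 2 and 11 reads, and the ratio of the levels in mouse 1, 19.7, has an interval of 5.18 to 167.5. The drop from the first to the second of these differences, 0.08, is smaller than either SE. The third and widest, at 103457564, was open already without LPS, with 60.7 and 60.8 RPKM with fenoterol and 101.1 and 119.8 RPKM with both (log2 difference 0.82, SE 0.16, adjusted p = 0.00136). That call was lost without the fenoterol + LPS library of mouse 2 (adjusted p = 0.0567).

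**Figure D2:**
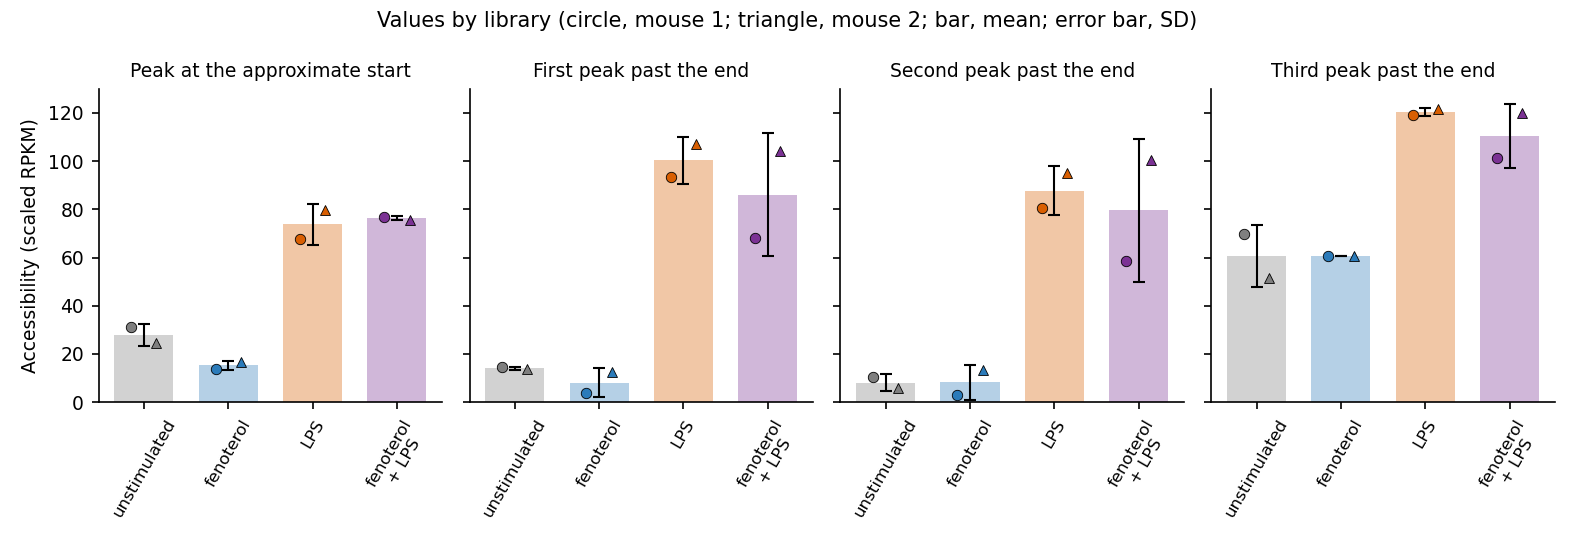
Scaled RPKM in each library at the peak over the approximate Acod1 start and at the 3 peaks past its end; circles are mouse 1, triangles mouse 2, bars group means and error bars SD (n = 2). At each of the 4 peaks both groups with LPS lie above both groups without it, and at the first 2 peaks past the end the fenoterol + LPS library of mouse 1 (68.0 and 58.7 RPKM) lies below the other 3 libraries with LPS.

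Within the gene the differences were smaller. The peak at 103447778 to 103448298 had 25.9 and 32.1 RPKM with fenoterol and 46.2 and 41.8 RPKM with both (log2 difference 0.54, SE 0.16, adjusted p = 0.0279). The peak at 103450557 to 103451004 had 48.4 and 51.7 RPKM with fenoterol and 76.3 and 76.7 RPKM with both (log2 difference 0.57, SE 0.14, adjusted p = 0.00912). Both calls were lost when the spread was not allowed to vary with the mean (adjusted p = 0.137 and 0.0755). They were also lost without the fenoterol library of mouse 1 (0.277 and 0.117) and when either fenoterol + LPS library was left out, that of mouse 1 (0.203 and 0.0842) or of mouse 2 (0.0916 and 0.0912). These are the least firm of the 11.

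Before the gene, peaks that rose lay among peaks that did not pass the threshold, and those at 103432466, 103433312 and 103436215 were consecutive peaks that did not. Farthest out among those that rose, the peak at 103411638 to 103412348, centred at -34.01 kb from the start, had 40.7 and 44.9 RPKM with fenoterol and 92.2 and 96.6 RPKM with both (log2 difference 1.07, SE 0.13, adjusted p = 2.14e-05). The peak at 103415102 to 103415502 had 26.7 and 20.55 RPKM with fenoterol and 67.6 and 57.1 RPKM with both (log2 difference 1.27, SE 0.15, adjusted p = 9.66e-06). At these 2, as at all 11 peaks that rose, the groups did not overlap. The peak at 103428413 to 103428891 had 17.7 and 21.5 RPKM with fenoterol and 51.8 and 54.8 RPKM with both (log2 difference 1.28, SE 0.15, adjusted p = 1.08e-05). The low peak at 103424953 to 103425285 had 5.67 and 7.74 RPKM with fenoterol, from 6 and 10 reads, and 20.55 and 26.0 RPKM with both (log2 difference 1.35, SE 0.28, adjusted p = 0.00232). Without the fenoterol + LPS library of mouse 2 its adjusted p was 0.0653. Nearest to the gene, the narrow peak at 103442130 to 103442333 had 17.0 and 20.2 RPKM with fenoterol and 37.3 and 46.7 RPKM with both (log2 difference 1.02, SE 0.19, adjusted p = 0.000810).

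The 5 peaks that did not pass were all before the gene and were open in every group. Their group means ran from 29.1 to 81.7 RPKM with fenoterol and from 29.7 to 89.8 RPKM with fenoterol + LPS, and their log2 differences from -0.21 to 0.20, with adjusted p from 0.436 to 0.931. The tall peak at 103432466 had 82.1 and 81.4 RPKM with fenoterol and 89.1 and 90.6 RPKM with both. The peak at 103436215 had 73.7 and 66.5 RPKM with fenoterol and 82.0 and 80.0 RPKM with both, a log2 difference of 0.20 that passed the threshold after quantile normalization (adjusted p = 0.0262) and cyclic loess (0.0278). The remaining 3, at 103406771, 103419947 and 103433312, had log2 differences of -0.13, 0.03 and -0.21. In LPS against unstimulated cells the same 5 had log2 differences from -0.30 to 0.15, and the 11 that rose had 0.39 to 2.94.

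**Figure D3:**
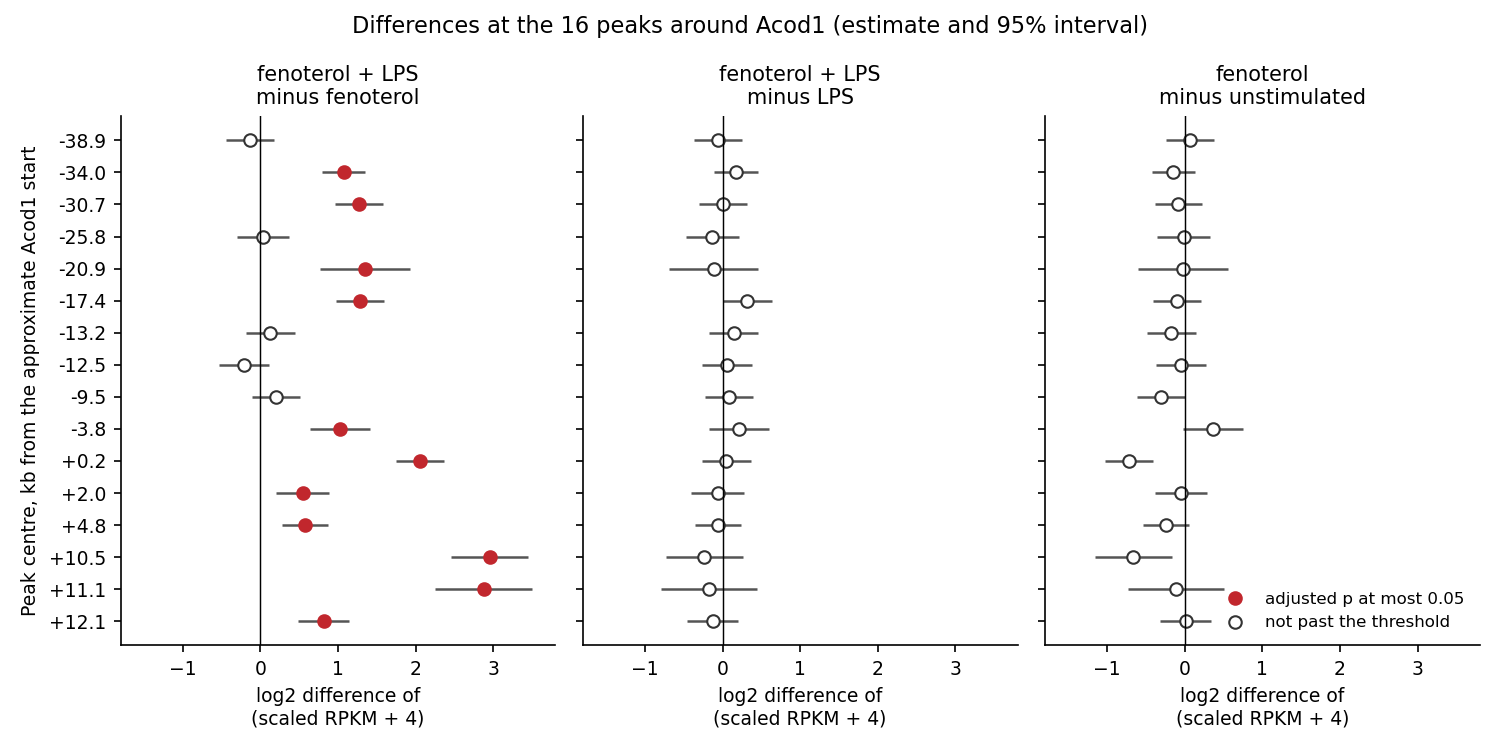
Log2 differences of scaled RPKM + 4 at the 16 peaks, in order of position and labelled by the distance of the peak centre from the approximate Acod1 start in kb, with 95% intervals from limma-trend; filled points passed an adjusted p of 0.05. In the left panel 11 points lie above 0 and pass, whereas in the middle and right panels none pass.

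Fenoterol given before LPS did not change any of the 16 peaks past the threshold. In fenoterol + LPS against LPS, 0 peaks rose and 0 fell by limma-trend, as in the whole table, where 0% were called in either direction. The count was 0 by voom too, which called 0.551% of all peaks higher and 0.0509% lower. The smallest adjusted p in the locus was 0.742, and 1 of 16 peaks had an unadjusted p under 0.05, against 6.66% of all tested peaks. That peak, at 103428413, had 39.7 and 44.2 RPKM with LPS and 51.8 and 54.8 RPKM with both (log2 difference 0.32, SE 0.15). The log2 differences ran from -0.24 to 0.32 with a median of -0.03, and 8 were positive and 8 negative. The median turned positive after quantile normalization (0.02) and cyclic loess (0.01), and ran from -0.03 to 0.06 with 1 library left out in turn. The widest limits of the 16 intervals, -0.80 and 0.63, correspond to 0.575-fold and 1.55-fold, so changes within that range may have been missed.

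At the approximate start, fenoterol + LPS and LPS differed by a log2 of 0.05, with an interval of -0.26 to 0.36. At the first 2 downstream peaks the differences were -0.24 (interval -0.73 to 0.26) and -0.18 (-0.80 to 0.45). In mouse 1 both were lower with fenoterol, at 68.0 against 93.3 RPKM and 58.7 against 80.4 RPKM. In mouse 2 they were at 104.2 against 107.2 RPKM and 100.4 against 95.01 RPKM. Without the fenoterol + LPS library of mouse 1 the differences were 0.06 and 0.19, so their direction rested on that library. The comparison shares its LPS libraries with LPS against unstimulated.

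Fenoterol alone for 15 min gave 0 calls among the 16 peaks by limma-trend and 0 by voom, where limma-trend called 0.00599% of tested peaks higher and 0.0015% lower and voom 0.0434% and 0.00299%. At an unadjusted p under 0.05 there were 2 of the 16, against 7.43% of all tested peaks. The peak over the approximate start was 1 of them. It had 31.2 and 24.5 RPKM in unstimulated cells and 13.8 and 16.7 RPKM with fenoterol. The groups did not overlap, which held at 7 of the 16 peaks here. The share over all tested peaks was not computed for this contrast, so nothing is read from the lack of overlap. The log2 difference was -0.72 (SE 0.15, interval -1.03 to -0.41, unadjusted p = 9.11e-05, adjusted p = 0.176). This is the smallest adjusted p of the 16. By voom the difference was -0.75 with an adjusted p of 0.68. The values rest on 18 and 44 reads unstimulated and 19 and 28 reads with fenoterol. The ratio of the levels was 0.444 in mouse 1, with an interval of 0.220 to 0.897, and 0.680 in mouse 2, with an interval of 0.408 to 1.12.

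The other was the first downstream peak, with 14.4 and 13.6 RPKM unstimulated and 3.89 and 12.4 RPKM with fenoterol (log2 difference -0.66, SE 0.24, adjusted p = 0.57). Mouse 2 hardly differed, and without the fenoterol library of mouse 1 the log2 difference was -0.13. Its close neighbour at 103457007 went opposite ways in the mice, from 10.6 to 2.97 RPKM in mouse 1 and from 5.69 to 13.4 RPKM in mouse 2. Over the 16 peaks the median log2 difference was -0.09, against -0.02 over all tested peaks. With unstimulated mouse 2 left out, so that the shallow library stood alone in its group, 2 peaks fell, that over the start (log2 difference -0.87, adjusted p = 0.00434) and that at 103436215 (-0.46, adjusted p = 0.0215). Under that omission 1728 peaks of the table rose and 1826 fell. It shares its unstimulated libraries with LPS against unstimulated.

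Whether the LPS difference depended on fenoterol was tested as an interaction, fenoterol + LPS minus fenoterol less LPS minus unstimulated. None of the 16 peaks passed by limma-trend or by voom. All-peak calls were 0% by limma-trend in both directions, and 0.0015% higher and 0.00449% lower by voom. The peak over the approximate start had the largest value, 0.77 (SE 0.21, adjusted p = 0.548), and was the 1 peak of 16 with an unadjusted p under 0.05, against 6.33% of all peaks. Its LPS difference was 1.29 without fenoterol and 2.06 with it, and the levels with LPS were 73.7 ± 8.64 and 76.2 ± 0.792 RPKM (SD, n = 2), whereas those without LPS were 27.8 ± 4.69 unstimulated and 15.3 ± 2.02 RPKM with fenoterol. Without the unstimulated library of mouse 2 the interaction was 0.92 with an adjusted p of 0.0458, and 142 peaks of the whole table were called higher and 136 lower. The 16 intervals reached from -0.94 to 1.21. Because LPS against unstimulated is a term of the interaction, its values may not be independent of the choice of the locus.

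**Figure D4:**
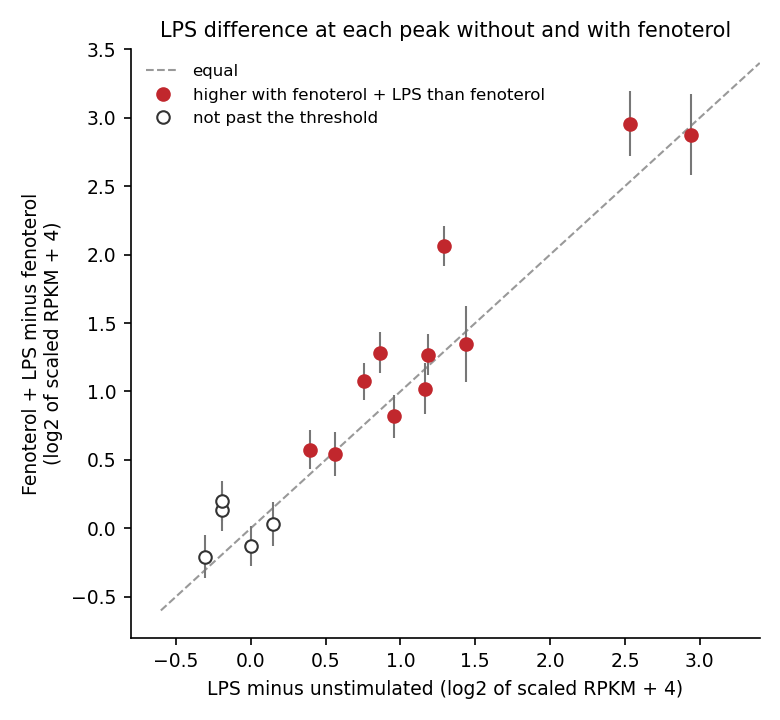
Log2 differences of scaled RPKM + 4 with LPS at each of the 16 peaks, without fenoterol (horizontal axis, LPS minus unstimulated) and with it (vertical axis, fenoterol + LPS minus fenoterol, with SE bars); the dashed line marks equal values and filled points passed the threshold on the vertical axis. The 2 peaks just past the gene end lie at the top right at 2.53 and 2.94 against 2.96 and 2.88, and the peak over the start lies above the line at 1.29 against 2.06.

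Summed over the 16 peaks, the window held 348.3 to 395.0 CPM, relative to all reads in peaks, in the 4 libraries without LPS and to 590.1 to 641.0 in the 4 with LPS. The 11 peaks that rose held 166.5 to 195.0 CPM without LPS and 400.9 to 461.1 with it. The other 5 held 179.9 to 199.96 CPM without LPS and 173.5 to 189.1 with it, so the values of the 5 overlapped between the states. These sums follow the choice of peaks by the test and are given as a description.

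The surroundings differed from the window in the counts. In the 200 kb on each side lie 34 peaks, of which 30 were tested. In fenoterol + LPS against fenoterol 3 of the 30 rose and 2 fell, with a median log2 difference of 0.00, beside 11 and 0 of the 16 in the window with a median of 0.92. The counts were not tested against each other. Over all tested peaks 6300 rose and 2882 fell, and after quantile normalization 6659 and 4983.

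Peaks elsewhere with the most similar profile were found by the distance between row-centred log2 values over the 8 libraries, among 64538 tested peaks. For the widest downstream peak, at 103457564, the nearest lay on chromosome 12 at 21341654 to 21342605, with means of 43.0 ± 9.05, 39.7 ± 1.55, 78.5 ± 4.26 and 73.0 ± 8.23 RPKM (SD, n = 2) in the unstimulated, fenoterol, LPS and fenoterol + LPS groups. Its distance was 0.182, where the median over all peaks compared was 1.48. The next 4 lay on chromosome 10 at 84728726, chromosome 11 at 64468265, chromosome 17 at 56091536 and chromosome 2 at 79865002, with distances of 0.208 to 0.219. The same measure for the first downstream peak, at 103456180, was added after its values were seen. The nearest profile was on chromosome 17 at 35335631 to 35336577, with 14.7 ± 6.02, 7.75 ± 4.40, 83.8 ± 2.19 and 62.5 ± 8.30 RPKM in the same order, at a distance of 0.733. The next were a pair of peaks on chromosome 16, at 84718045 and 84717504, and single peaks on chromosome 10 at 18718762 and chromosome 13 at 103892604. These likenesses are over the same 8 libraries with the same scaling factors for every peak. Most of the profile is the step between libraries without and with LPS.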

How the data were processed

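The authors deposited 1 RPKM value per peak and library for a peak list shared by all 8 libraries, on build mm9. Cutadapt, Bowtie2, MACS2 and HOMER are named in the submitters' processing notes. Not given in the sources used here are their versions, any removal of duplicates or Tn5 shift, and whether libraries were pooled to call peaks. RPKM times peak length was a whole multiple, to within 0.01, of a step fitted in each library, for 100% of values. Taking that step as 1 read recovers the reads. The lowest value is then 1 read. Some values of 1 read may stand for peaks without reads, which cannot be seen.

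Libraries were brought to 1 scale with median-ratio factors of 0.940 to 1.04. With a pseudocount of 4, log2 values of 66786 peaks (the lowest 10% by mean left out) were fitted by limma-trend (limma 3.58.1, R 4.3.3; 4 group means, all 8 libraries, Benjamini-Hochberg adjustment over all peaks, threshold 0.05). Fold changes refer to value + 4, which understates them at low peaks. The 4 residual degrees of freedom are joined by 16.4 from the spread shared over peaks. The fits were tested on simulated data. Alternatives were other scalings, pseudocounts, filters, limma voom, the mouse as a block, the 4 libraries compared, and each library left out.

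The labels name the mouse of each library, and libraries of 1 mouse were treated as paired for the block; the mouse 1 minus mouse 2 differences of any 2 groups correlated at 0.0223 to 0.0713. The members and lists were chosen with earlier results of these data known. Values are given for peaks with a mean of at least 20 RPKM or a call in fenoterol + LPS against fenoterol, which held for 16 of 16; the 5 nearest profiles outside the window, without chromosome 18, are named. Genes of the itaconate pathway and cell type markers were not analysed here, since no mm9 annotation was used.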

Additional observations from a re-analysis of the deposited data

How the results depend on the processing

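With 1 library left out in turn, the number of the 16 peaks called ran from 7 to 11 in fenoterol + LPS against fenoterol (11 with all libraries), from 0 to 2 in fenoterol against unstimulated and from 0 to 1 for the interaction, and stayed at 0 in fenoterol + LPS against LPS; a lone library is then assumed to vary like the other groups. Over all tested peaks these omissions gave 4.51% to 12.1% higher in fenoterol + LPS against fenoterol. Without the unstimulated library of mouse 2 they gave 1728 higher and 1826 lower in fenoterol against unstimulated and 142 and 136 for the interaction. The mouse as a replicate block gave 11, 0, 0 and 0 calls in fenoterol + LPS against fenoterol, fenoterol + LPS against LPS, fenoterol against unstimulated and the interaction, and changed no call. In LPS against unstimulated, 2 peaks in place of 6 were at least 2-fold higher with a pseudocount of 20. The log2 difference of fenoterol + LPS against fenoterol changed sign within the leave-one-out range at 103406771 (-0.28 to 0.014) and 103419947 (-0.094 to 0.16). In fenoterol + LPS against LPS and in fenoterol against unstimulated, leave-one-out values of single peaks were kept for only 5 of the 16. Changes of sign at the others are not given. Among the 5, that of fenoterol + LPS against LPS did so at 103445994 (-0.063 to 0.16), 103456180 (-0.53 to 0.057) and 103457007 (-0.55 to 0.19), and that of fenoterol against unstimulated at 103457007 (-0.77 to 0.55; 0.077 by voom with the block) and 103457564 (-0.19 to 0.22). None of these was past the threshold with all libraries, and the cause was not tested. Depth limits the unstimulated and fenoterol values at 103457007 most, with 2 to 11 reads.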
